A study of Mus musculus with 12 samples.

Results

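Microglia are the resident macrophages of the brain. Next to plaques, dying neurons or damaged myelin they switch on a set of genes known as the disease-associated microglia programme. Its later stage depends on TREM2, a surface receptor for lipids and lipoproteins, which signals through the adaptor TYROBP (also called DAP12). Presenilins are the catalytic subunits of gamma-secretase, and mice that lack them in the forebrain are known for neurodegeneration with gliosis.

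The 10 genes described here are Trem2, Tyrobp, Apoe, Cst7, Clec7a, Ccl6, Ccl3, Gpnmb, Axl and Spp1. They were chosen by name as genes of the TREM2-dependent activated state, and all 10 were found among the 21878 genes of each table. RNA was measured in the hippocampus of presenilin conditional double knockout mice (DKO) and of wild-type mice (WT). The mice were killed under pentobarbital at 9 a.m. (Day) or 9 p.m. (Night), which gave 4 groups of 3 libraries (Day DKO, Day WT, Night DKO and Night WT). The sources used here do not give the driver of the conditional deletion or the age and sex of the mice. The labels do not say whether libraries came from separate mice, and p-values therefore reflect the spread between these libraries alone.

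The receptor and adaptor genes lie apart in the genome, and the chemokine genes lie close together. In GRCm38.p6 Trem2 spans chr17:48346401-48352276 on the plus strand and Tyrobp spans chr7:30413782-30417582 on the plus strand. Ccl6 (chr11:83587886-83593087) and Ccl3 (chr11:83647843-83649378) both lie on the minus strand of chromosome 11. Ccl6 is overlapped by E230016K23Rik on the other strand, and the sources used here do not say whether counting used the strand. Cst7 spans chr2:150570415-150578944, Gpnmb chr6:49036518-49058182 and Spp1 chr5:104435111-104441053, all on the plus strand. Clec7a (chr6:129461591-129472785), Apoe (chr7:19696244-19701310) and Axl (chr7:25756500-25788924) lie on the minus strand. Spp1 is overlapped on its own strand by Gm42793, an annotated entry of unknown coding status.

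The promoters of 4 genes are shown because Trem2 and Ccl3 hold GAGGAA and Cst7 and Ccl6 do not. GAGGAA is a form of the PU box, the site of the myeloid transcription factor PU.1. Shorter and variant forms were not searched. The Cst7 and Ccl6 sequences both hold AGGAAGTG, on the strand of the gene in Cst7 and on the opposite strand in Ccl6. RefSeq's promoters for GRCm38.p6 run from 250 bases before to 50 bases after the start, and 9 of the 10 genes had an entry, with 13 promoters between them. Capitals mark GAGGAA on either strand, so that TTCCTC is a match on the strand opposite to the gene. Coordinates are chr17:48346151-48346450 (plus strand) for Trem2, chr11:83649329-83649628 (minus strand) for Ccl3, chr2:150570165-150570464 (plus strand) for Cst7 and chr11:83593038-83593337 (minus strand) for Ccl6.
Trem2: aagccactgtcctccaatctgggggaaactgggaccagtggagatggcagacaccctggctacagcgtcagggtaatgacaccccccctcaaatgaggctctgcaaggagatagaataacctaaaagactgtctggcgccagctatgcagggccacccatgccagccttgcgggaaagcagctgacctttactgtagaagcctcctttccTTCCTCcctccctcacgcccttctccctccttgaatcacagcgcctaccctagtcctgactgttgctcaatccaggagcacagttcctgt
Ccl3: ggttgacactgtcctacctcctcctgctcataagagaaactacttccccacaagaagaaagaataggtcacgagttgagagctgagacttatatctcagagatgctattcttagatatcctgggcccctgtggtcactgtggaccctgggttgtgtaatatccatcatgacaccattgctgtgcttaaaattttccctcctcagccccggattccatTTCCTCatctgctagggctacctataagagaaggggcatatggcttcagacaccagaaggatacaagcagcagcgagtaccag
Cst7: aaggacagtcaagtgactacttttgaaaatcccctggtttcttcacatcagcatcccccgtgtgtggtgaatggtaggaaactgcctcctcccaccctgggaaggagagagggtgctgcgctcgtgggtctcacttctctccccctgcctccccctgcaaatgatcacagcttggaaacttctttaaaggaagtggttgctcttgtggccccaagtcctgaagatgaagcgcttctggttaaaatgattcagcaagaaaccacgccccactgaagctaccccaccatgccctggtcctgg
Ccl6: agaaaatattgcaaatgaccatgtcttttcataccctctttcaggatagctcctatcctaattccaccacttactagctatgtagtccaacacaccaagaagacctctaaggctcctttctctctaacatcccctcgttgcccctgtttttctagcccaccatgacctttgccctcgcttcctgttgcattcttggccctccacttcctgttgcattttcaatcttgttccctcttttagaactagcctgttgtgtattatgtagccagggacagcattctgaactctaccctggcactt

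The match began 40 bases before the start in Trem2 and 33 bases before it in Ccl3, both on the opposite strand. GAGGAA stood in 8 of the 13 promoters, those of Apoe, Axl, Ccl3, Clec7a, Spp1 and Trem2, and in 28.3% of all 32851 promoters in the table. The 13 are not all separate stretches. The Clec7a promoters overlap almost wholly and share the same match, and some Apoe promoters overlap in part. The longer GAGGAAGT, which contains GAGGAA, stood in 1 of the 13, that of Spp1, and in 3.2% of all promoters. CACGTG, the E-box of the MITF and TFEB family, stood in 0 of the 13 and in 7.15% of all promoters, and a 10-letter NF-kappaB motif stood in 0 of the 13 and in 0.155%. Both strands were searched for each motif. A match is a description of these letters and was not tested as a binding site, and no match says only that the letters are not in these windows.

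The genotype labels were checked with Psen2, a target of the knockout. It was lower in every DKO library, at 0.275 to 0.594 FPKM, than in any WT library, at 1.47 to 3.64 FPKM. FPKM scales fragments to transcript length and to the size of the library, and without counts no counting error can be given. Library sums were 151059 to 175692 FPKM, and the spacing of low values gave depths of 0.917 to 1.05 relative to the first Day WT library. A pair of libraries stood apart. Night WT replicate 1 had 0.0225 FPKM of the Y-linked gene Ddx3y, against 6.83 to 8.56 FPKM in the 11 other libraries. The Y-linked genes Uty, Eif2s3y and Kdm5d were also near 0 in it (0.00224, 0.00609 and 0 FPKM). This is the pattern of female tissue, and the 11 other libraries had the male pattern. By these genes, sex was not matched between Night WT and the other groups. Night DKO replicate 1 had low Psen2 (0.486 FPKM) but levels within or under the WT range for several genes described here, so the night and averaged differences of genes it bears on are also given without it.

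**Figure D1:**
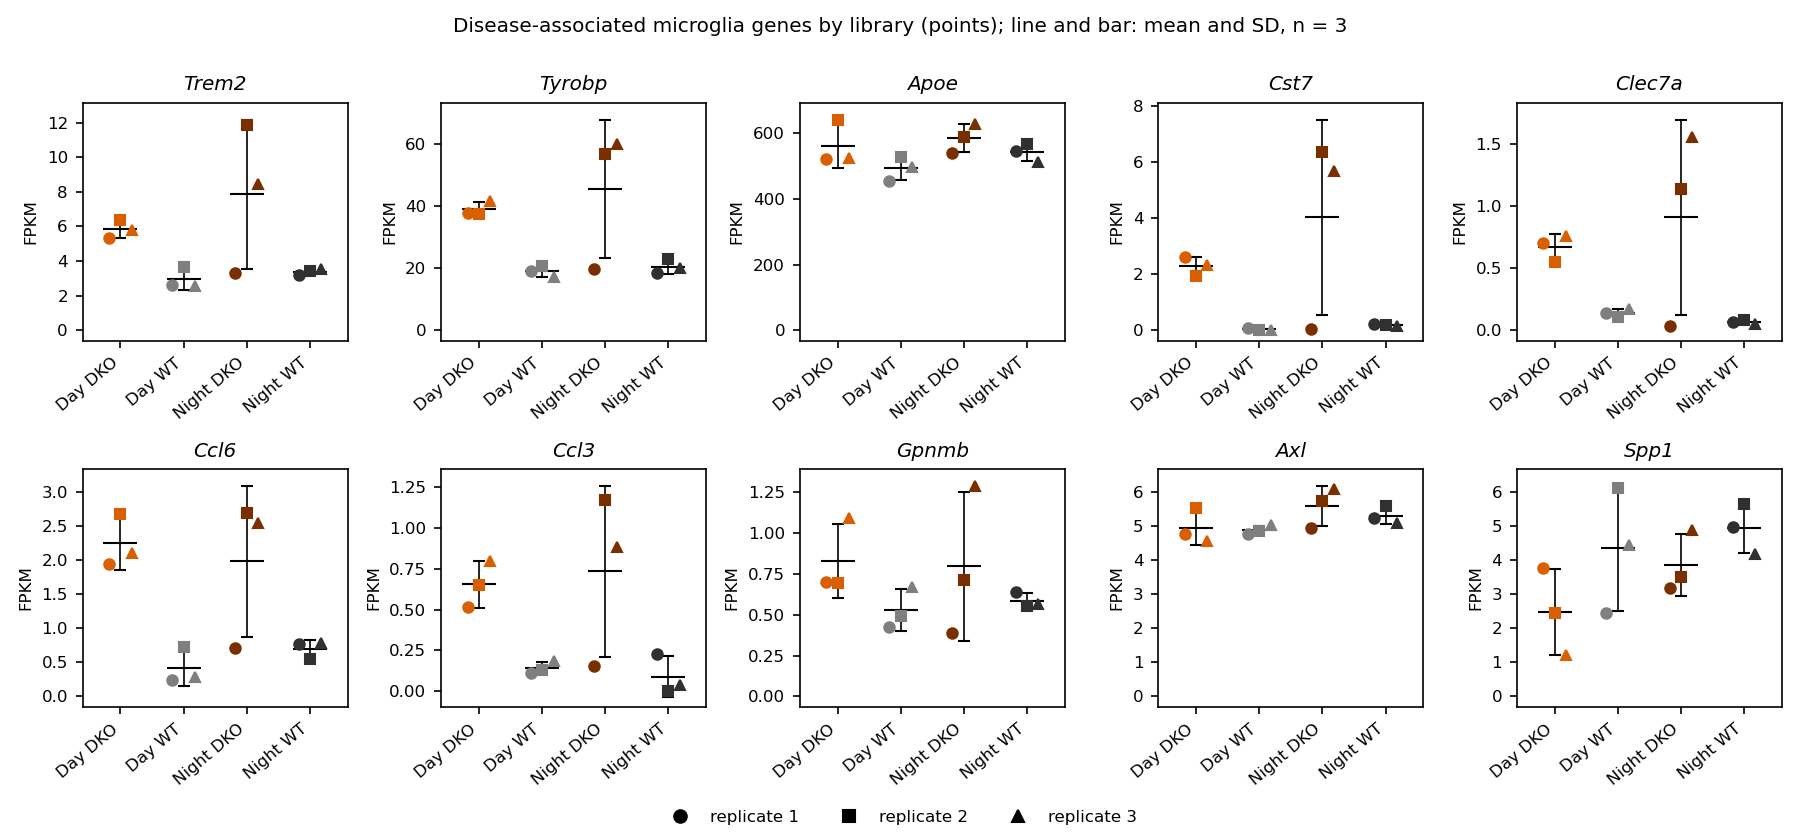
FPKM (linear axes, each panel with its own scale) of the 10 genes in each of the 12 libraries; points are libraries, with shape showing the replicate number, and the line and bar are the mean and SD of 3 libraries. By day the DKO points of 7 genes lie above all WT points, as in 14.3% of all genes tested. Of these 7, Cst7, Clec7a and Ccl3 passed the filter on low values only through DKO libraries. At night 1 of the 3 DKO libraries lies within or under the WT range for the same 7 genes.

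The log2 difference, DKO minus WT, was above 0 for 9 of the 10 genes by day and at night, all but Spp1. Of all 12689 genes tested, 7975 were above 0 by day and 5856 at night. Trem2, Clec7a, Apoe, Gpnmb, Axl and Spp1 did not pass by day, at night or averaged over both times. Averaged over both times, 4 of the 10 genes rose (Tyrobp, Cst7, Ccl6 and Ccl3; limma on log2(FPKM + 1), adjusted p under 0.05 over all 12689 genes tested), where 1.00% of all genes tested rose and 1.88% passed in either direction. By day 1 of the 10 rose (Ccl6), where 0.796% of all genes rose and 1.18% passed in either direction. At night 0 of the 10 passed, where 0% of all genes rose and 0.0236% passed in either direction; at an unadjusted p under 0.05, 6 of the 10 were higher at night, as were 3.78% of all genes. Cst7, Clec7a and Ccl3 passed the filter on low values only through DKO libraries, so they carry no weight as support in any of these counts. Of the averaged calls, only Tyrobp and Ccl6 passed that filter from WT libraries alone. In whole tissue, more microglia and more RNA per cell cannot be told apart, here and in every result that follows.

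All 3 DKO libraries lay above all 3 WT libraries by day for 7 of the 10 genes (Trem2, Tyrobp, Cst7, Clec7a, Ccl6, Ccl3 and Gpnmb), a pattern found in 14.3% of all genes tested. Cst7, Clec7a and Ccl3 passed the filter on low values only through DKO libraries, so their counts carry no weight as support. Of the 7 genes that passed from WT libraries alone, 4 were separated by day (Trem2, Tyrobp, Ccl6 and Gpnmb). At night 0 of the 10 were separated, against 5.73% of all genes with DKO higher.

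Trem2, the receptor, had 5.33, 6.35 and 5.81 FPKM in the Day DKO libraries, against 2.61, 3.67 and 2.58 FPKM in the Day WT libraries. At night it had 3.30, 11.9 and 8.43 FPKM in DKO, against 3.20, 3.43 and 3.54 FPKM in WT. By day the groups did not overlap, whereas at night 2 DKO libraries lay above all WT libraries and replicate 1 lay among them. The means were 5.83 ± 0.510 FPKM in Day DKO and 2.95 ± 0.625 FPKM in Day WT, a ratio of 1.98, and 7.86 ± 4.31 FPKM in Night DKO and 3.39 ± 0.170 FPKM in Night WT (SD, n = 3 each). The averaged log2 difference of 0.84 (SE 0.20, 95% interval 0.41 to 1.26) did not pass the threshold (limma, adjusted p = 0.0510). It passed in 6 of 23 alternative settings, among them a pseudocount of 0.1 (adjusted p = 0.0492), a filter on a mean of at least 1 FPKM (0.0475) and library quality weights (0.0402), and over all of them adjusted p ran from 5.17e-05 to 0.994.

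Tyrobp, the adaptor that carries the signal of TREM2 and of other receptors, was the second most abundant of the 10 genes after Apoe. It had 37.8, 37.3 and 41.6 FPKM in Day DKO, against 19.2, 20.7 and 17.1 FPKM in Day WT. At night it had 19.8, 56.6 and 60.0 FPKM in DKO, against 18.4, 22.9 and 20.0 FPKM in WT. Replicates 2 and 3 of Night DKO were the highest of all 12 libraries, and replicate 1 stood between WT values. By day DKO exceeded WT by a ratio of means of 2.05. Tyrobp rose in the averaged comparison, with a log2 difference of 0.99 (SE 0.21; limma, adjusted p = 0.0318).

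Cst7 encodes cystatin F, an inhibitor of lysosomal cathepsins, and showed the widest gap between genotypes. It had 2.59, 1.92 and 2.32 FPKM in Day DKO, against 0.0543 FPKM in 1 Day WT library and 0 in the other two. At night it had 0.0274, 6.37 and 5.69 FPKM in DKO, against 0.194, 0.183 and 0.132 FPKM in WT. Night DKO replicate 1 was thus below every Night WT library, and the other two Night DKO libraries were above every other library. No fold is given by day because the gene is listed at 0 in WT libraries. Cst7 rose in the averaged comparison (log2 difference 1.67, SE 0.37; limma, adjusted p = 0.0387).

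Clec7a encodes dectin-1, a phagocytic receptor for fungal glucans. It had 0.700, 0.552 and 0.760 FPKM in Day DKO, against 0.141, 0.105 and 0.172 FPKM in Day WT, and 0.0312, 1.14 and 1.56 FPKM in Night DKO, against 0.0621, 0.0861 and 0.0509 FPKM in Night WT. As for Cst7, the Day groups did not overlap and Night DKO replicate 1 was the lowest of the 6 night libraries. The averaged log2 difference was 0.65 (SE 0.16) and did not pass (limma, adjusted p = 0.0661).

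The chemokines Ccl6 and Ccl3, which attract leukocytes, were low in WT tissue. Ccl6 had 1.95, 2.68 and 2.11 FPKM in Day DKO, against 0.240, 0.726 and 0.287 FPKM in Day WT, a ratio of means of 5.38. At night it had 0.707, 2.69 and 2.55 FPKM in DKO, against 0.772, 0.552 and 0.786 FPKM in WT. It was the single gene of the 10 called by day (log2 difference 1.20, SE 0.23; limma, adjusted p = 0.0319), and it rose in the averaged comparison (0.97, SE 0.17, adjusted p = 0.0157). The Day call held in 15 of 24 alternative settings. It was lost without any 1 of the Day WT libraries, without Day DKO replicate 2 or 3 or Night WT replicate 3, with no filter on low values and with either covariate described further on, and adjusted p ran from 0.000692 to 0.777.

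Ccl3 had 0.514, 0.648 and 0.800 FPKM in Day DKO, against 0.112, 0.129 and 0.185 FPKM in Day WT. At night it had 0.151, 1.17 and 0.884 FPKM in DKO, against 0.230, 0 and 0.0366 FPKM in WT. All Day DKO values were above all Day WT values, and Night DKO replicate 1 lay inside the Night WT range. Ccl3 rose in the averaged comparison (log2 difference 0.58, SE 0.13; limma, adjusted p = 0.0365).

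Apoe, which encodes the lipid carrier apolipoprotein E and is made mainly by astrocytes in healthy brain, was the most abundant of the 10 genes. It had 520, 642 and 524 FPKM in Day DKO, against 456, 529 and 497 FPKM in Day WT, and 540, 590 and 628 FPKM in Night DKO, against 546, 568 and 512 FPKM in Night WT. The groups overlapped at both times. The averaged log2 difference was 0.15, with a 95% interval of -0.0020 to 0.29 (limma, adjusted p = 0.314).

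Gpnmb, Axl and Spp1 did not pass in any comparison. Gpnmb, a glycoprotein of lysosome-rich macrophages, had 0.699, 0.697 and 1.09 FPKM in Day DKO, against 0.425, 0.493 and 0.673 FPKM in Day WT, and 0.391, 0.710 and 1.29 FPKM in Night DKO, against 0.640, 0.556 and 0.566 FPKM in Night WT. The Day groups did not overlap, but the averaged log2 difference of 0.20 had a 95% interval of -0.02 to 0.42 (limma, adjusted p = 0.357).

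Axl, a receptor for the bridging proteins GAS6 and protein S that takes part in clearing dead cells, had 4.76, 5.52 and 4.55 FPKM in Day DKO, against 4.76, 4.84 and 5.02 FPKM in Day WT. At night it had 4.94, 5.72 and 6.09 FPKM in DKO, against 5.24, 5.58 and 5.08 FPKM in WT. The averaged log2 difference was 0.037 and its 95% interval ran from -0.08 to 0.15 (limma, adjusted p = 0.794). The sign of its Day difference depended on the scaling: it was 0.013 as deposited and -0.022 with median-of-ratios scaling.

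Spp1, which encodes the secreted matrix protein osteopontin, was the single gene of the 10 with a lower mean in DKO. It had 3.77, 2.44 and 1.23 FPKM in Day DKO, against 2.46, 6.12 and 4.45 FPKM in Day WT, and 3.19, 3.50 and 4.88 FPKM in Night DKO, against 4.98, 5.65 and 4.19 FPKM in Night WT. The groups overlapped at both times and the spread among libraries was wide. The averaged log2 difference was -0.46 (95% interval -0.87 to -0.05), which did not pass after adjustment (limma, adjusted p = 0.246).

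**Figure D2:**
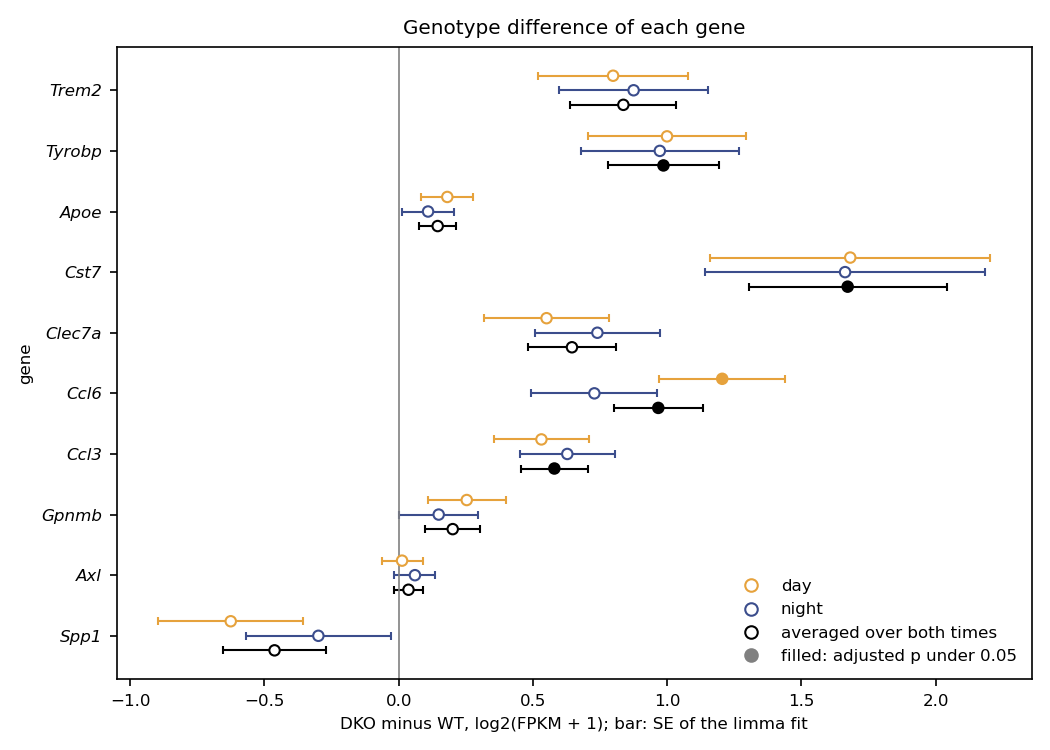
Difference of log2(FPKM + 1), DKO minus WT, for each gene by day, at night and averaged over both times; bars are the SE of the limma fit and filled points have an adjusted p under 0.05. Cst7 lies furthest right at 1.67 averaged, Axl lies near 0 and Spp1 lies left of 0.

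Night DKO replicate 1 set much of the spread at night. Without it, 6 of the 10 genes were called by day and 6 at night (Trem2, Tyrobp, Cst7, Clec7a, Ccl6 and Ccl3 each time), where 0.908% and 0.261% of all genes rose in the same fits. Of these 6, Cst7, Clec7a and Ccl3 had passed the filter only through DKO libraries. The day differences themselves did not change (0.80 for Trem2 and 1.68 for Cst7 in both fits). The fit shares its spread over all 4 groups, so a night library also bears on the day calls. The night differences were then 1.33 for Trem2 (limma, adjusted p = 0.000499), 1.48 for Tyrobp (2.36e-05), 2.59 for Cst7 (2.74e-08), 1.13 for Clec7a (5.42e-05), 1.09 for Ccl6 (0.00247) and 0.90 for Ccl3 (0.00165). Averaged over both times the same 6 were called, where 1.11% of all genes rose, with differences of 1.06 for Trem2 (5.17e-05), 1.24 for Tyrobp (1.81e-06), 2.13 for Cst7 (2.37e-09), 0.84 for Clec7a (1.49e-05), 1.15 for Ccl6 (3.61e-05) and 0.72 for Ccl3 (0.00024). Apoe, Gpnmb, Axl and Spp1 did not pass without it either. The library was singled out by these same low values, so these figures show what it contributes and are not a separate test.

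**Figure D3:**
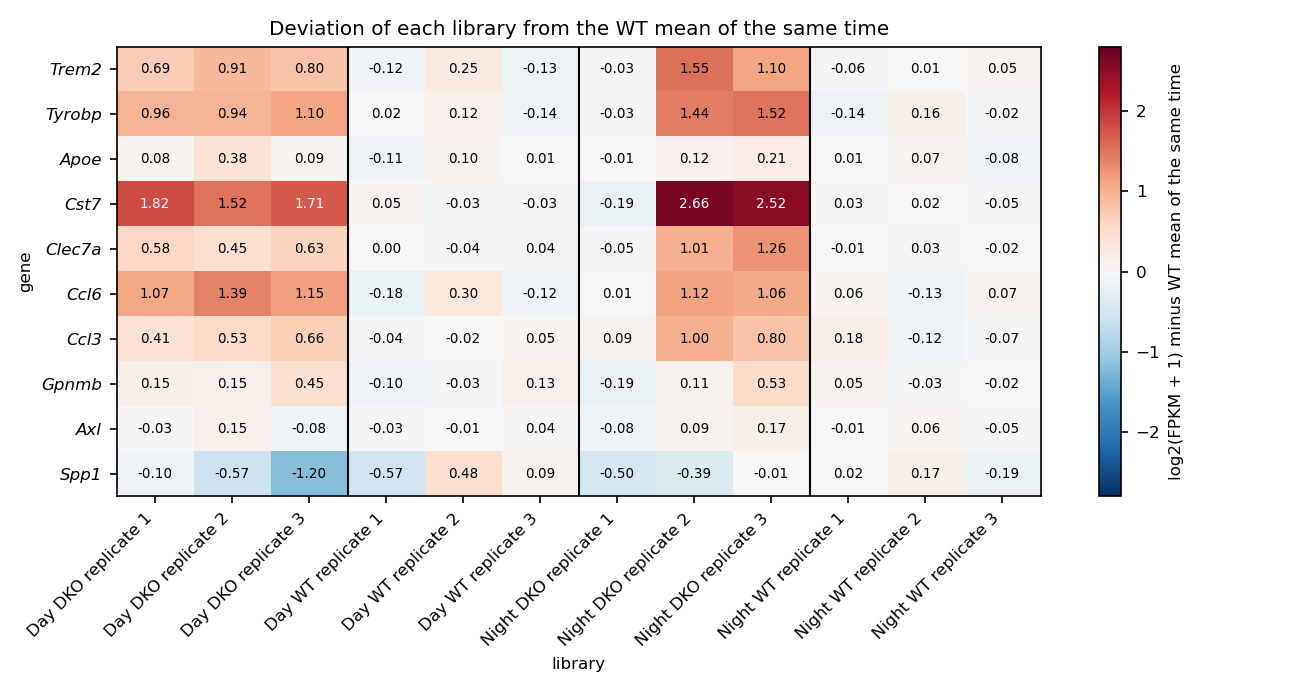
Log2(FPKM + 1) of each library minus the WT mean of the same time, for the 10 genes (rows) and 12 libraries (columns), with red above and blue below the WT mean. Trem2, Tyrobp, Cst7, Clec7a, Ccl6 and Ccl3 are red in the 3 Day DKO libraries and in Night DKO replicates 2 and 3, and near 0 in Night DKO replicate 1.

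The averaged calls were sensitive to single libraries elsewhere too. Leaving out 1 library at a time left between 1 and 6 of the 10 genes called, and between 80 and 255 of all genes. The count of the 10 was 6 without Night DKO replicate 1 and 3 when Day DKO replicate 1 was dropped. It was 2 when Night WT replicate 2 was dropped and 1 for each of the other 9 libraries. Cst7, Clec7a and Ccl3 passed the filter on low values only through DKO libraries and carry no weight as support in these counts. With no filter on low values 0 of the 10 passed. Over all alternative settings the averaged call held in 21 of 23 for Ccl6, 11 of 23 for Tyrobp, 9 of 23 for Cst7 and 9 of 22 for Ccl3.

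Time of day was compared within each genotype. Between night and day, 0 of the 10 genes passed in DKO, where 0.299% of all genes did, and 0 of the 10 in WT, where 1.67% did. Unadjusted p-values under 0.05 were found for 0 of the 10 in either genotype by limma, the one tool run, and for 15.1% of all genes in DKO and 22.3% in WT. The widest gap was that of Spp1 in DKO, with a log2 difference of 0.53 (SE 0.27; limma, adjusted p = 0.380). With all libraries, log2 differences in DKO were 0.0701 for Tyrobp and 0.18 for Cst7 (limma, adjusted p = 0.949 and 0.918). Without Night DKO replicate 1 they were 0.57 and 1.11 (limma, adjusted p = 0.0393 and 0.000429), where 0.205% of all genes were called higher at night. Both genes were low in that replicate, which is why it was left out, and leaving it out raises their night means. This fit therefore cannot test an effect of time of day on them. Cst7 also passed the filter on low values only through DKO libraries. The interaction of genotype and time was called for 0 of the 10 genes, and for 0% of all genes, of which 1099 had an unadjusted p under 0.05. Ccl6 had the smallest interaction p of the 10, with a difference of -0.48 (SE 0.33; limma, adjusted p = 0.673).

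Homeostatic microglia genes, which mark resting microglia, moved with the same libraries. The summed level of a list of 15 such genes was 106 to 115 FPKM in Day DKO and 75.2 to 84.0 FPKM in Day WT. At night it was 87.8, 120 and 118 FPKM in DKO, and 80.5 to 87.9 FPKM in WT. Averaged over both times 5 of the 15 rose and 0 fell. Those that rose included Olfml3 (log2 difference 0.67), Aif1, which encodes IBA1 (0.34), Csf1r, the receptor for microglial growth factors (0.25), and Gpr34 (0.22). The list's median log2 difference was 0.18, against 0.014 for all genes tested. P2ry12 and Tmem119, defining markers of microglia, were among the 10 that did not pass (0.11 and 0.12; limma, adjusted p = 0.392 and 0.418).

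Set against this list, Tyrobp was higher in every Day DKO library than in any Day WT library. Per 100 FPKM of the summed list it stood at 35.8, 32.3 and 39.0 FPKM in Day DKO, against 25.5, 24.6 and 20.9 FPKM in Day WT, and at 22.6, 47.1 and 50.6 FPKM in Night DKO, against 22.1, 26.0 and 24.8 FPKM in Night WT. Trem2 stood at 5.05, 5.51 and 5.45 FPKM in Day DKO, against 3.47, 4.37 and 3.15 FPKM in Day WT, and at 3.76, 9.87 and 7.12 FPKM in Night DKO, against 3.86, 3.91 and 4.39 FPKM in Night WT. At night replicate 1 of DKO thus lay under every WT library for Trem2 and the others lay above them. As such a ratio, Apoe was lower in every DKO library at both times. It stood at 493, 557 and 491 FPKM in Day DKO, against 607, 630 and 607 FPKM in Day WT. At night it stood at 615, 490 and 530 FPKM in DKO, against 657, 647 and 636 FPKM in WT. Axl was also lower in every DKO library, at 4.26 to 4.79 FPKM in Day DKO, against 5.76 to 6.34 FPKM in Day WT, and at 4.76 to 5.63 FPKM in Night DKO, against 6.31 to 6.35 FPKM in Night WT. The summed list was itself higher in DKO apart from Night DKO replicate 1, so there this ratio falls for a gene whose own level does not change. Mean FPKM of Apoe was 562 in Day DKO and 494 in Day WT, and 586 in Night DKO and 542 in Night WT. For Axl the means were 4.94 in Day DKO and 4.88 in Day WT, and 5.59 in Night DKO and 5.30 in Night WT. No test was run on these ratios.

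When the mean level of the homeostatic list entered the limma fit as a covariate, 0 of the 10 genes passed in the averaged comparison. The log2 differences were then 0.071 for Tyrobp, 0.11 for Cst7, 0.20 for Ccl6, 0.081 for Ccl3 and -0.065 for Trem2. The list itself differed between the genotypes and shared Night DKO replicate 1's low level, so its part and that of genotype cannot be told apart in this fit.

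**Figure D4:**
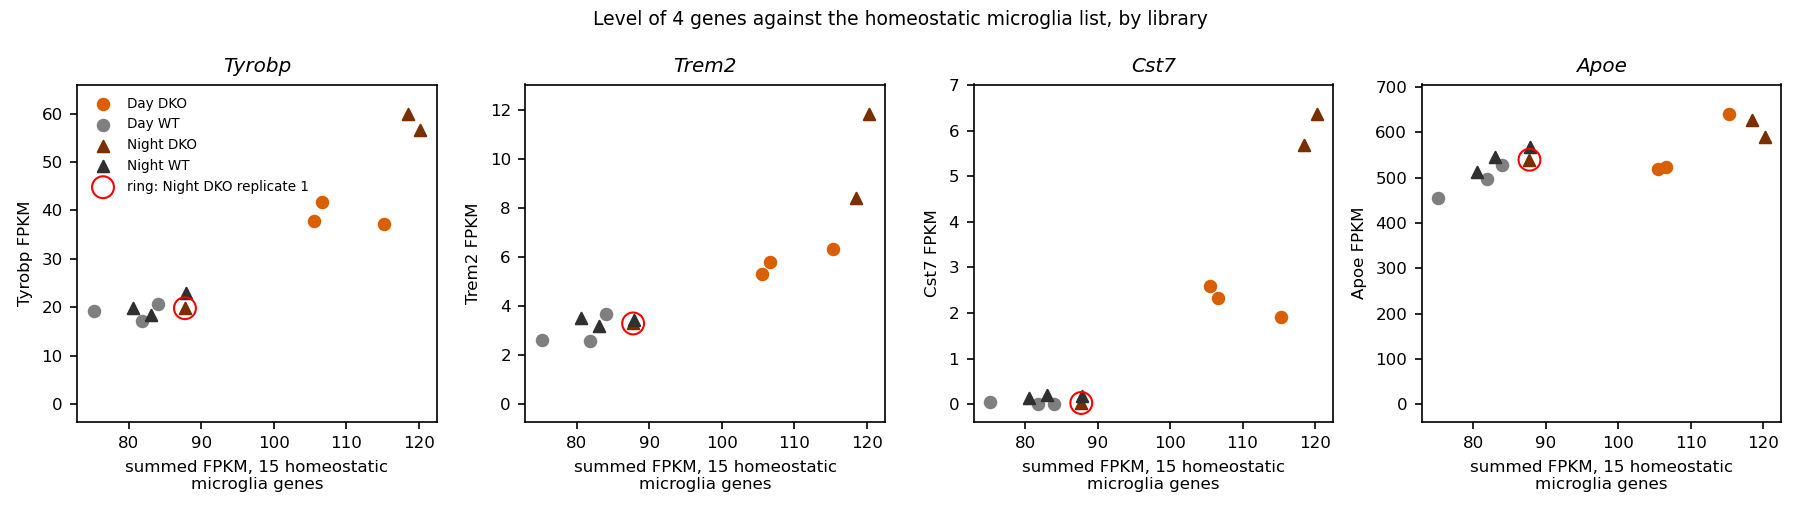
FPKM of Tyrobp, Trem2, Cst7 and Apoe (linear y axes) against the summed FPKM of 15 homeostatic microglia genes (linear x axis) in the 12 libraries; the ring marks Night DKO replicate 1. The ringed library lies with the WT libraries at 87.8 FPKM on the x axis, and the other DKO libraries lie at 106 FPKM or more.

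Of 30 further genes of the activated state, 25 were tested, 0 rose and 1 fell in the averaged comparison. That gene was Cox6a2, a subunit of cytochrome c oxidase best known from muscle (log2 difference -0.66; limma, adjusted p = 0.0115). The lysosomal genes Ctss, Cd68, Ctsd and Ctsz had differences of 0.61, 0.62, 0.32 and 0.31 and did not pass (adjusted p = 0.0554, 0.0623, 0.0769 and 0.129). The list's median was 0.08. Itgax, which encodes CD11c, was too low to be tested, at 0.347 ± 0.0840 FPKM in Day DKO and 0.0301 ± 0.0144 FPKM in Day WT, and at 0.492 ± 0.414 FPKM in Night DKO and 0.0349 ± 0.0190 FPKM in Night WT (SD, n = 3 each).

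Of 18 genes listed around TREM2 and TYROBP signalling, some of them for other receptors and membrane proteins, 9 were tested and 1 rose in the averaged comparison. This was Blnk, an adaptor that links SYK to phospholipase C, with 2.08 ± 0.337 FPKM in Day DKO and 0.716 ± 0.211 FPKM in Day WT, and 1.72 ± 0.688 FPKM in Night DKO and 0.727 ± 0.0631 FPKM in Night WT (SD, n = 3 each; averaged log2 difference 0.73, limma, adjusted p = 0.0115). By day Blnk (0.85) and the adaptor Grb2 (0.31) both rose. The kinase gene Syk was not tested, with a mean of 0.320 FPKM in Day DKO and 0.326 FPKM in Day WT. Plcg2, the phospholipase, had a difference of 0.04 and the phosphatase gene Inpp5d one of 0.20, and neither passed.

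Of 17 ligands, receptors and partners, 14 were tested and 1 rose. Mertk, a receptor of the same family as Axl, had 3.86 ± 0.520 FPKM in Day DKO and 2.76 ± 0.101 FPKM in Day WT, and 4.54 ± 0.107 FPKM in Night DKO and 3.92 ± 0.203 FPKM in Night WT (SD, n = 3 each; averaged log2 difference 0.27, limma, adjusted p = 0.0251). Tyro3, the other receptor of that family, had a difference of 0.09 and their ligand gene Gas6 one of -0.14, and neither passed. Of 10 transcription factor genes, 8 were tested and 0 passed, with 3 higher at an unadjusted p under 0.05 (Cebpa, Tfe3 and Irf8). Of all 12689 genes tested, 1228 were higher at that threshold. Spi1, which encodes PU.1, had a difference of 0.08 (limma, adjusted p = 0.730).

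**Figure D5:**
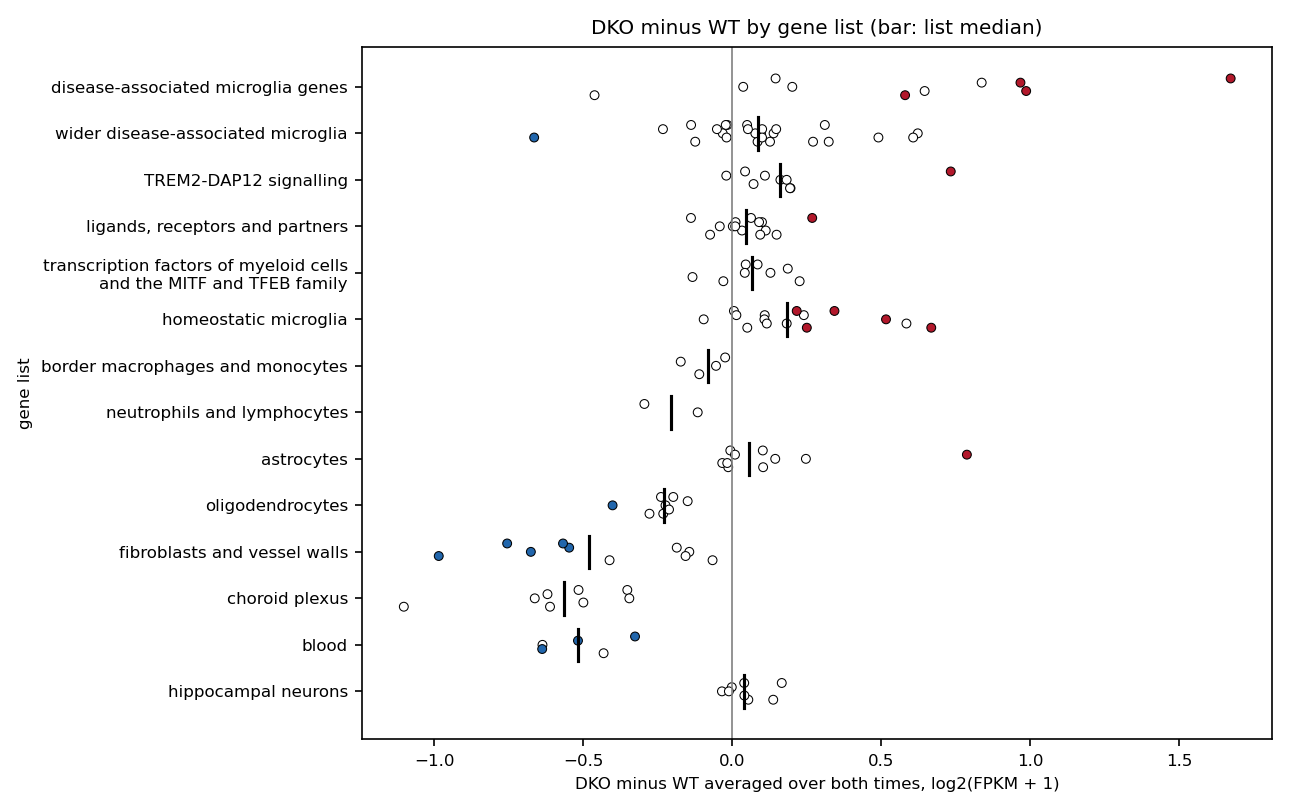
Difference of log2(FPKM + 1), DKO minus WT averaged over both times, of every tested gene of each list; the bar is the median of each list below the 10 genes and filled points have an adjusted p under 0.05 (red higher, blue lower). The 10 genes spread from -0.46 to 1.67, 3 of them having passed the filter only through DKO libraries, and the homeostatic list has a median of 0.18.

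Markers of other cells were measured beside these genes. Of 10 border macrophage and monocyte markers 4 were tested and 0 passed, with summed levels of 1.79 to 5.43 FPKM in DKO and 3.66 to 6.19 FPKM in WT. Of 10 neutrophil and lymphocyte markers 2 were tested (S100a8 and S100a9) and 0 passed, with summed levels of 0.146 to 1.88 FPKM in DKO and 0.679 to 7.57 FPKM in WT; Ly6g, which defines neutrophils, was at 0 in all 12 libraries. Of 10 astrocyte markers 1 rose, Gfap (log2 difference 0.79; limma, adjusted p = 0.0290), and their sum was 440 to 528 FPKM in DKO and 403 to 457 FPKM in WT. Genes of fibroblasts and vessel walls fell in 5 of 10 cases (Tagln, Myh11, Lum, Acta2 and Col3a1), blood genes in 3 of 5 and oligodendrocyte genes in 1 of 8 (Opalin). The summed choroid plexus level ranged from 60.5 to 1765 FPKM in Day DKO and from 1095 to 2717 FPKM in Day WT. With the mean log2(FPKM + 1) of the choroid plexus list as a covariate, Ccl6 alone of the 10 was called in the averaged comparison. The part of these cell types in the differences was not tested.

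Genes whose level followed Trem2 and Tyrobp within groups were found from deviations of log2(FPKM + 1) from the group means over 12 libraries. Closest to Trem2 were Cd68 (Pearson's r = 0.980), Ccl6 (0.944), the complement genes C1qb (0.928) and C1qc (0.927), and Csf1r (0.924). Closest to Tyrobp were C1qb (0.983), Ctss (0.976), Plek (0.964), Mpeg1 (0.945) and Unc93b1 (0.940). These values describe libraries that share tissue and group, and rest in part on Night DKO replicate 1. Without it r was 0.870, 0.714, 0.378, 0.404 and 0.641 for Trem2 with these genes, in the order given, and 0.712, 0.509, 0.423, 0.568 and 0.0349 for Tyrobp.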

How the data were processed

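RNA of 12 hippocampal libraries was sequenced after removal of ribosomal RNA with a stranded kit, per the labels' protocols. The authors deposited a table of 21878 genes for each library. The deposited values were taken as FPKM from their scale, because no header names a unit. The genome build was GRCm38.p6, per the submitters' processing notes; the sources used here do not give the aligner, quantifier or annotation. Without counts, only a relative depth could be had.

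Values were transformed to log2(FPKM + 1), a scale that understates the change of low genes. Genes with 0.5 FPKM or more in 3 or more libraries, 12689 in all, entered limma 3.58.1 in R 4.3.3, with 1 mean per group over all 12 libraries and an intensity trend. P-values were 2-sided and Benjamini-Hochberg adjusted over all genes tested, with 0.05 as the threshold. Comparisons were DKO against WT by day, at night and averaged, night against day in each genotype, and the interaction. The fit was tested on simulated data. The 10 genes and the gene lists were chosen with earlier results of these data known.

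Genes named are the 10, Psen2, every called gene and up to 5 genes of smallest p per list, and the 5 genes most like Trem2 and Tyrobp. Other list genes named, such as Itgax, Syk, Plcg2, Tyro3, Gas6, P2ry12, Tmem119 and Spi1, were chosen after their values were seen. Some genes that this rule takes are not reported here. Alternatives were another pseudocount (0.1), other filters, median-of-ratios and quantile scaling, only the groups compared, no trend, a replicate block, library weights, 2 covariates and leaving out each library. No 2 libraries had more than 0.0315% identical values. Symbols of 27 genes turned into dates were restored from gene IDs.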

Additional observations from a re-analysis of the deposited data

How the results depend on the processing

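Named by setting, these counts of called genes or of the 10 genes moved by over 1.5 times. As reported, the calls were 150 by day, 3 at night, 238 averaged, 212 for night against day in WT, 38 in DKO and 0 for the interaction, and 1, 0, 4, 0, 0 and 0 of the 10 genes. With no filter they were 26 by day, 24 averaged, 64 in WT and 21 in DKO over time, and 0 of the 10 by day and averaged. Median-of-ratios scaling gave 57 in WT and 65 in DKO over time; quantile scaling gave 98 by day, 71 and 63. Only the groups compared gave 51 by day, 18 at night and 24 in WT, with 6 of the 10 by day. No trend gave 99 in WT. Library weights gave 5 at night and 418 in WT. The choroid plexus covariate gave 6 by day, 106 averaged and 15 in DKO over time, with 0 and 1 of the 10 by day and averaged. The homeostatic covariate gave 0 by day, 0 at night, 0 averaged and 110 in WT, with 0 of the 10 by day and averaged. Leaving out Night DKO replicate 1 and Night WT replicate 1 together, chosen after seeing the data, gave 36 at night, 106 averaged and 3 in WT, with 6 of the 10 by day, 6 at night and 2 in DKO over time.

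Leaving out 1 library gave 14 to 205 genes by day, 2 to 38 at night, 80 to 255 averaged, 1 to 214 in WT, 19 to 55 in DKO and 0 to 1 for the interaction. Of the 10 genes it left 0 to 6 by day, 0 to 6 at night, 1 to 6 averaged and 0 to 2 in DKO over time. Same-numbered libraries correlated at -0.116 to 0.247, with 7 of 18 pairs over 0.1 (median 0.0568), and differently numbered ones at -0.204 to 0.220, with 4 of 36 over 0.1 (median -0.0291). All 3 same-numbered pairs of Day DKO and Night WT were over 0.1, but in none of the 4 pairs of groups compared were all 3, and not every library correlated best with its own number there. The labels do not say what a number marks. The fit with the replicate block called 5 genes at night and Trem2 in the averaged comparison (limma, adjusted p = 0.0291).

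Signs turned as follows. Axl by day was -0.0219 with median-of-ratios and -0.0217 with quantile scaling, and -0.11 with the choroid plexus covariate (-0.0265 averaged); without single libraries it ran from -0.0559 to 0.0607. Gpnmb at night ran from -0.0406 to 0.32 without single libraries, and was 0.34 without the pair. With the homeostatic covariate the day values were -0.15 for Trem2, -0.0917 for Apoe, -0.15 for Clec7a, -0.0556 for Gpnmb and -0.21 for Axl. At night they were -0.13 for Apoe, -0.13 for Gpnmb and -0.14 for Axl. Averaged they were -0.0652 for Trem2, -0.11 for Apoe, -0.0143 for Clec7a, -0.0915 for Gpnmb and -0.17 for Axl. The cause was not tested. Unknown depth and 3 libraries per group limit all 10 genes, and levels near 0 in WT also limit Cst7, Clec7a and Ccl3.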

Other observations

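Mertk and Sdc4, the gene of a heparan sulfate proteoglycan, rose at night relative to day in WT (log2 differences 0.39 and 0.38; limma, adjusted p = 0.0357 and 0.0401), and 0 of the other 12 tested ligands, receptors and partners did. The interaction with genotype was not called for either gene. Of the low genes of the activated state that were not tested, Ccl4, a chemokine related to Ccl3, averaged 0.221 ± 0.147 FPKM in Day DKO and 0.0114 ± 0.0198 FPKM in Day WT (SD, n = 3 each). Cybb, a subunit of the phagocyte oxidase, averaged 0.0939 ± 0.0327 FPKM in Day DKO and 0.118 ± 0.0718 FPKM in Day WT.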
